A study of Rattus norvegicus with 8 samples.

Results

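The proteasome genes described here are those whose rat symbol has the form Psma to Psmg followed by a digit, which takes in the core particle, its regulatory cap, the activators, an inhibitor and assembly factors, and leaves out the inducible subunits Psmb8 and Psmb9. That form is matched by 100 genes of the RefSeq rat table, 48 of them pseudogenes and 52 protein-coding. Probes of the array were matched through their RefSeq accessions to 45 of these genes, by 47 probes. Genes entered the tests if some group had a probe whose 2 arrays both cleared the background, and 43 genes (44 probes) did, out of 25097 features tested on the array and 12729 with a gene symbol. Of the 43 genes, 40 belong to the particle or its partners. Of these 39 were above background on all 8 arrays. The other, Psmg2, entered only through the smoke group, where it is high. Its differences from smoke are given as values, and where it is counted among the calls below, the filter favoured that call. The other 3 share the form of the name: Psmb6l1, a copy of Psmb6, and Psmc3ip and Psme3ip1, which are named as interaction partners. The filter removed Psma8, the testis form of a core subunit, and Psmg4l1, both too dim in every group. The protein-coding genes Psmb3, Psmb3l1, Psmb3l2, Psmb11, Psmd11, Psmg1 and Psmg3 had no matched probe and were not analysed here.

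The data are 1-colour microarrays of lung tissue from male rats, in 4 groups of 2 arrays. The naive rats breathed normal air, and the smoke rats were exposed to cigarette smoke for 12 weeks. The other groups had the same smoke exposure and then, in week 13, an intratracheal dose of about 2500000 human umbilical cord mesenchymal stem cells (MSC group) or of extracellular vesicles isolated from 2500000 such cells (EV group). RNA came from 30 mg of tissue, and the labelling took 200 ng of it. The labels give neither strain, age nor the cell sorts in the tissue, and they do not say that arrays of a group come from separate animals, so the p-values measure only the spread between these samples, which may be technical. Lung tissue is a mixture, so fewer cells of a type and less RNA per cell cannot be told apart.

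The proteasome degrades proteins tagged with ubiquitin. Its core is a barrel of stacked rings: the alpha subunits form the gated entrance and the beta subunits form the inner rings, of which Psmb5, Psmb6 and Psmb7 carry the cutting sites. The regulatory cap recognises tagged proteins and removes the ubiquitin, and its ring of ATPases unfolds the substrate and threads it into the core. Interferon induces Psmb8, Psmb9 and Psmb10, which replace the constitutive cutting subunits and shape the peptides shown to T cells.

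Levels are log2 of the processed signal minus the 75th percentile of the array, so a level of 0 is a probe at that percentile; levels of different probes were not set against each other as amounts of RNA. The 75th percentile itself was 6.49-fold higher on the smoke arrays than on the naive arrays (geometric means), while the spike-in controls, RNA added in a fixed amount, were at 0.839 of the naive signal. Scaling to the percentile or to the spike-ins therefore gives different directions for many genes, and both are given below. An array detected 48.1% to 71.3% of its probes, and the 2 arrays of a group had a correlation across probes of 0.951 to 0.979. All arrays lay on 1 slide, where each group fills a column, so the slide's columns and the groups cannot be told apart. The summed levels of the marker genes moved with the groups too. The 6 lung epithelium markers, all detected, summed to 10.4 to 10.8 on naive arrays and 9.01 to 9.12 on smoke arrays, against 10.2 to 10.5 with EVs and 9.96 to 10.8 with MSCs. The 4 endothelium markers summed to 6.50 to 6.89, 4.88 to 5.23, 6.04 to 6.16 and 6.37 to 7.30 in the same order, and the 8 leukocyte markers to 5.75 to 6.08, 4.62 to 4.69, 6.02 to 6.19 and 6.51 to 6.80. For heart muscle 4 of 5 markers were kept, and they summed to -0.53 to 0.07, -1.77 to -1.68, -0.08 to 4.65 and 0.64 to 5.88. The sums are led by the brightest genes, and the lists did not move as one. In smoke against naive the endothelial Cldn5 was called higher, by 2.42 (adjusted p = 0.00847), against the sum of its list, and was lower after both treatments. Of the 8 leukocyte markers 4 were above 0, with Cd68 called higher by 0.91, and Cd3e and Laptm5 were called lower; the sum follows Laptm5, at 5.70 in naive lung and 4.07 in smoke. Of the epithelial markers 0 of 6 and of the endothelial 1 of 4 were above 0 on the percentile scale, while on the spike-in scale all markers of the 4 lists were. The part of these shifts in the results below was not tested.

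Against naive lung, smoke-exposed lung showed a split within the proteasome: 16 of the 40 genes rose and 6 fell relative to the array's percentile, by limma with Benjamini-Hochberg adjustment over all 25097 features. The genes that rose include the core subunits Psmb1, Psmb2, Psmb7, Psma1, Psma2 and Psma7, while those that fell include the core subunits Psmb6 and Psmb10. Over all features 47.5% were called, 12.1% higher and 35.4% lower, so calls as such were common, and the members were called higher in 40% and lower in 15%. The median difference of the 40 genes was 0.35 on the log2 scale against -0.62 over all features, and 29 of the 40 lay above the median of all features. Their differences ran from -1.61 to 2.69, and in 34 of the 40 the arrays of both groups did not overlap, as in 79.4% of all features. Of the 39 genes other than Psmg2, 15 rose and 6 fell.

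**Figure D1:**
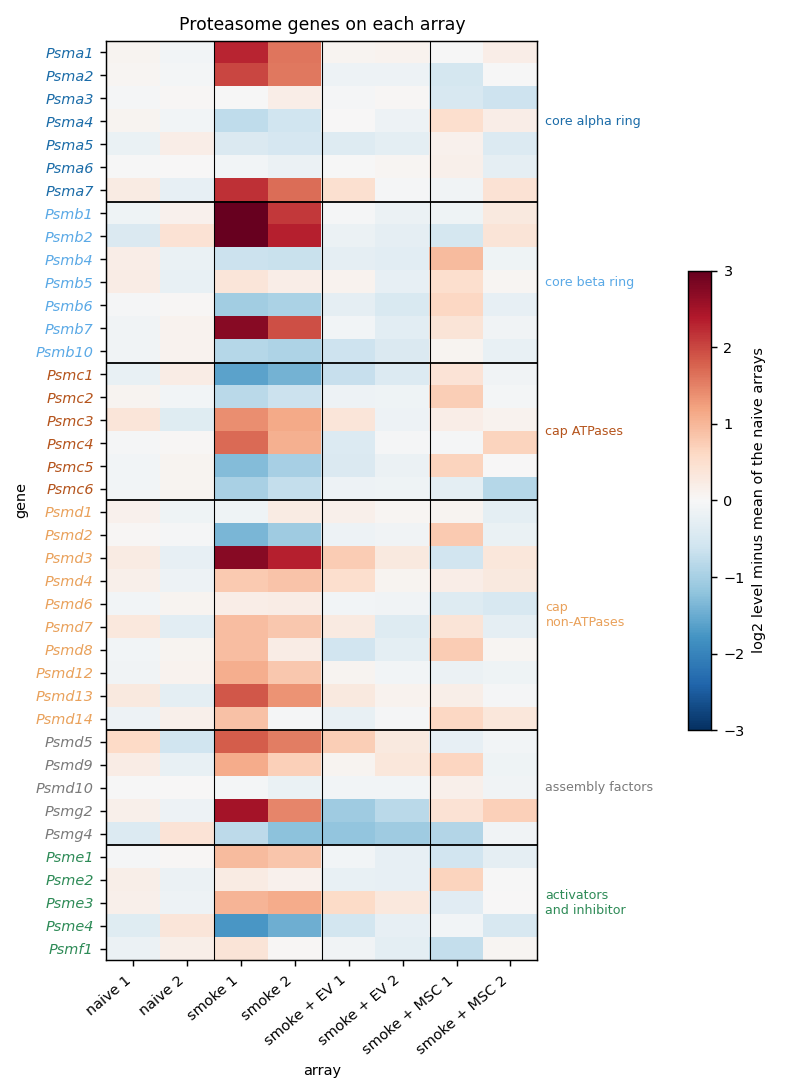
Colour shows the log2 level of each of the 40 proteasome genes on each of the 8 arrays, minus the mean of the naive arrays, on the percentile scale; rows are grouped by role. The smoke arrays carry the strongest colours in both directions, with a standard deviation over the genes of 1.38 and 1.09, against 0.28 to 0.48 on the EV and MSC arrays; over all features it was 1.56 and 1.28 against 0.58 to 0.93. Scaled to the spike-ins, all 40 genes are higher in smoke.

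The 16 genes that rose were above 0 and called under quantile normalization, cyclic loess and spike-in scaling alike. Under normexp background correction 15 of them were above 0 and 14 were called, with Psmg2 at -0.068. The 6 genes that fell did so under the percentile, quantile, cyclic loess and normexp settings, with 2 called under quantile normalization and 1 under cyclic loess. Scaled to the spike-ins these 6 were instead higher in smoke, by 1.34 to 2.05 on the log2 scale, below the median of all features on that scale, which was 2.33. Percentile and spike-in scaling differ by a constant for each array, so differences between genes within an array are the same on both. Over all features, quantile normalization called 17.2% higher and 19.5% lower, cyclic loess 20.2% and 20.8%, spike-in scaling 82.3% and 0.522%, and normexp 7.66% and 66.1%; the 40 members gave 16 and 2, 20 and 1, 40 and 0, and 15 and 8.

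Leaving out 1 array at a time changed many of the calls. Among the genes called higher, Psma1, Psma2, Psma7, Psmb1, Psmb2, Psmb7 and Psmd3 stayed called in all 8 such fits, as did Psmg2, which the filter let in through smoke. The number of members called higher was 8 without smoke replicate 1, 9 without naive replicate 2, 11 without smoke replicate 2 and 12 without naive replicate 1. Calls over all features dropped in the same fits, from 12.1% higher to 3.73%, 7.73%, 8.74% and 9.56%. None of the 6 genes called lower stayed called in all 8 fits. Without smoke replicate 1 no member was called lower, with the adjusted p of the 6 reaching at most 0.177. The count was 2 without naive replicate 2 or smoke replicate 2, 3 without naive replicate 1 or either EV array, and 8 without either MSC array. The share of all features called lower was 13.7% without smoke replicate 1, between 24.1% and 30.9% in the fits with 2 or 3 members, and 38.8% without an MSC array.

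**Figure D2:**
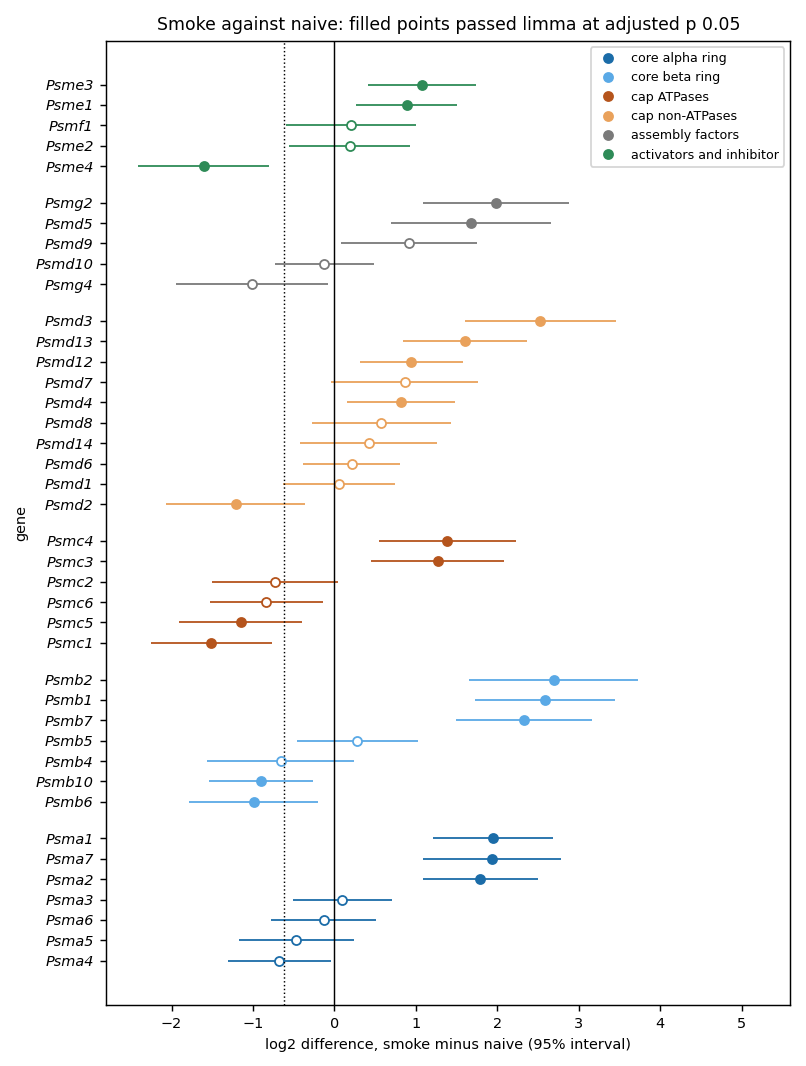
Points show the log2 difference between smoke and naive for each of the 40 genes with its 95% interval, by role; filled points passed limma at an adjusted p of 0.05, the solid line is 0 and the dotted line is the median of all features, -0.62. Each role except the assembly factors and the alpha ring holds genes called on both sides of 0; on the spike-in scale all 40 differences are above 0.

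The alpha ring held 7 measured genes, of which 3 rose and 0 fell, with a median difference of 0.10. Psma1 read -0.78 and -0.96 in naive lung, 1.43 and 0.73 in smoke, -0.78 and -0.77 with EVs and -0.88 and -0.68 with MSCs. Both smoke arrays were above all 6 others, and the other 3 groups covered nearly the same range. Its difference between smoke and naive was 1.95 (SE 0.31, adjusted p = 0.00355 by limma), a 3.86-fold rise. Psma7 and Psma2 rose by 1.94 and 1.79. Psma3, a subunit of the same ring, stood at -1.10 and -1.05 on naive arrays and -1.10 and -0.87 on smoke arrays, which overlapped, with a difference of 0.10 (95% interval -0.51 to 0.70). The other members, Psma4, Psma5 and Psma6, had differences of -0.68, -0.47 and -0.13 and were not called. Within an array, where a constant scaling cancels, Psma1 minus Psma4 was 3.05 and 2.20 above its naive mean on the smoke arrays. On the EV and MSC arrays it was between -0.51 and 0.26. Psma1 and Psma4 hold the ring's highest and lowest differences, so the gap in smoke follows from the choice of pair.

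Of the 7 measured genes of the beta ring 3 rose and 2 fell, with differences from -0.99 to 2.69. Psmb2, a structural subunit, read -1.17 and -0.32 in naive lung, 2.31 and 1.59 in smoke, -0.93 and -1.01 with EVs and -1.28 and -0.37 with MSCs. The smoke arrays were the 2 highest, well clear of the other 6. It rose 6.46-fold, by 2.69 (SE 0.45, adjusted p = 0.00387). Psmb1, also structural, read -2.62 and -2.38 in naive lung, 0.55 and -0.38 in smoke, -2.53 and -2.68 with EVs and -2.63 and -2.20 with MSCs. The smoke arrays again lay above every other array, although they differed from each other by more than the naive arrays did. Its rise was 2.58 (SE 0.37, adjusted p = 0.00271), or 6.00-fold.

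The 3 cutting subunits of the constitutive core went separate ways. Psmb7, which carries the trypsin-like site, read -2.43 and -2.24 in naive lung, 0.40 and -0.41 in smoke, -2.41 and -2.64 with EVs and -1.95 and -2.45 with MSCs. Only the smoke arrays were raised, and the rise was 2.33 (SE 0.36, adjusted p = 0.00312). Psmb6, which carries the caspase-like site, read 2.72 and 2.80 in naive lung, 1.72 and 1.82 in smoke, 2.49 and 2.30 with EVs and 3.38 and 2.52 with MSCs. Its smoke arrays were the 2 lowest, and the difference was -0.99 (SE 0.34, adjusted p = 0.0444), 0.502 of the naive level. That call was lost without any 1 of the naive, smoke or EV arrays, at an adjusted p of up to 0.177, and the difference was 1.96 on the spike-in scale. Psmb5, with the chymotrypsin-like site, stood at 2.08 and 1.63 in naive lung and at 2.23 and 2.05 in smoke, overlapping, with a difference of 0.28 (95% interval -0.46 to 1.02).

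Psmb10, the inducible subunit that takes the place of Psmb7, moved the other way from it. It read 3.29 and 3.50 in naive lung, 2.53 and 2.45 in smoke, 2.77 and 2.96 with EVs and 3.48 and 3.16 with MSCs. Both smoke arrays were below all others. The difference was -0.90 (SE 0.27, adjusted p = 0.0302). It was lost without any 1 of the naive, smoke or EV arrays, at up to 0.119, and was 2.05 on the spike-in scale. The difference between Psmb10 and Psmb7 within an array, relative to its naive mean, was -3.60 and -2.86 in smoke. On the EV and MSC arrays it was between -0.55 and -0.12. The probe of Psmb10 is bright and that of Psmb7 dim, and differences in smoke went with probe brightness, as given below. A shift that depends on brightness would not cancel within an array, and its part here was not tested. The inducible subunits outside the rule were not called: Psmb8 had a difference of 1.60 (SE 0.57, adjusted p = 0.0507) and Psmb9 of 0.23 (SE 0.28, adjusted p = 0.517). The missing call of Psmb8 lies close to the threshold and does not show that the gene was unchanged. Its 95% interval was 0.27 to 2.92, and the arrays of both groups did not overlap. Of 20 alternative settings, which include leaving out each array, 9 called Psmb8 and 2 called Psmb9.

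The promoters of the 3 members with the smallest p in this comparison are shown as the sequence context of the genes that rose: the 250 bases before the RefSeq start in assembly GRCr8, with matches to the NF-Y box CCAAT on either strand in capitals. Psmb1 lies at chr1:65134771-65135020 on the minus strand with 1 match, Psmb7 at chr3:42827471-42827720 on the minus strand with 2, and Psmd3 at chr10:84139688-84139937 on the plus strand with 0.
Psmb1: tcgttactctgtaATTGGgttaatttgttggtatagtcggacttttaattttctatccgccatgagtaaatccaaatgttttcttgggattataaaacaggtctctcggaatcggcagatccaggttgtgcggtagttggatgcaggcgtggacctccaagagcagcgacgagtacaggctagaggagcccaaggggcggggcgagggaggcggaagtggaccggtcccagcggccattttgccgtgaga
Psmb7: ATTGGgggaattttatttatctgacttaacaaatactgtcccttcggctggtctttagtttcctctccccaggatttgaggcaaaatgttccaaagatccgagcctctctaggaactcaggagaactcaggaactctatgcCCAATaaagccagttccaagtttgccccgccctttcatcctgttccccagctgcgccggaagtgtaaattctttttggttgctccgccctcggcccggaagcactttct
Psmd3: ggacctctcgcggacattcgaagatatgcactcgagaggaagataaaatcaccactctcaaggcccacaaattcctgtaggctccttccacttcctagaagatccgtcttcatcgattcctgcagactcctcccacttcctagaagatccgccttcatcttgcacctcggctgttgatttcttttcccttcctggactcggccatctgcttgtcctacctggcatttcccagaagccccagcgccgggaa

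Of the 40 genes, 36 had an entry in the promoter table. CCAAT occurred in 17 of the 36 windows (47.2%), against 34% of all 33469 windows of that length. The core of the antioxidant response element, TGACNNNGC on either strand, the motif bound by NFE2L1 and NFE2L2, occurred in 7 of the 36 (19.4%), against 10.1% of all windows. By call in smoke, CCAAT was in 9 of 14 windows of genes that rose, 1 of 6 of those that fell and 7 of 16 of the rest, and the antioxidant core in 1 of 14, 2 of 6 and 4 of 16. The 2 motifs can share bases where they meet, and a match describes the window only.

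The ATPases of the cap split evenly, with 2 of 6 higher and 2 lower and a median difference of -0.78. Psmc4 rose by 1.38 (SE 0.36, adjusted p = 0.0176) and Psmc3 by 1.27 (SE 0.35, adjusted p = 0.0216). Psmc4 lost its call without either naive array or smoke replicate 1, at up to 0.125, and Psmc3 without naive replicate 2 or either smoke array, at up to 0.124. Psmc1 read 4.01 and 4.48 in naive lung, 2.65 and 2.82 in smoke, 3.55 and 3.83 with EVs and 4.66 and 4.14 with MSCs. Its smoke arrays were the 2 lowest, and it fell by 1.51 (SE 0.32, adjusted p = 0.00823), a call lost only without smoke replicate 1, at 0.0619. A second Psmc1 probe gave -0.23 (SE 0.32, adjusted p = 0.564), so the gene's probes disagree. Psmc5 had a difference of -1.15 (SE 0.32, adjusted p = 0.023), lost without any 1 naive or smoke array at up to 0.137. On the spike-in scale Psmc1 and Psmc5 were higher in smoke, by 1.44 and 1.80. Psmc2 and Psmc6 were not called, at -0.73 and -0.84.

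Among the 10 non-ATPase subunits of the cap, 4 rose and 1 fell, with a median difference of 0.70. Psmd3, a subunit of the lid, read -3.34 and -3.85 in naive lung, -0.88 and -1.26 in smoke, -2.84 and -3.30 with EVs and -4.18 and -3.26 with MSCs. The smoke arrays lay above all others. Its rise of 2.53 (SE 0.40, adjusted p = 0.00329), or 5.77-fold, was the highest in the cap. Other lid subunits that rose were Psmd13, by 1.60 (adjusted p = 0.00726, lost at 0.0622 without smoke replicate 1), and Psmd12, by 0.94 (adjusted p = 0.0245, lost without any 1 naive or smoke array at up to 0.151). Psmd4, a ubiquitin receptor, stood at 1.07 and 0.76 in naive lung and 1.70 and 1.77 in smoke. It rose by 0.82 (SE 0.29, adjusted p = 0.0474), which was lost without any 1 naive, smoke or EV array at up to 0.172. Psmd2, a scaffold subunit that holds ubiquitin shuttles, fell by 1.21 (SE 0.37, adjusted p = 0.0293), lost without any 1 naive, smoke or EV array at up to 0.154 and at 1.74 on the spike-in scale. Psmd14, the deubiquitinase of the lid, stood at -2.54 and -2.24 in naive lung and -1.52 and -2.42 in smoke, which overlap, with a difference of 0.42 (95% interval -0.42 to 1.26).

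Of 5 assembly factors, which guide the subunits into place and leave, 2 were called higher, Psmg2 and Psmd5. Psmg2, which helps to form the alpha ring and which the filter let in through smoke, had a difference of 1.99, given as a value only. It was well above background on 1 of 2 naive arrays and on both smoke arrays, and was at -0.068 under normexp correction. Psmd5, a chaperone of the ATPase ring, rose by 1.68 (SE 0.42, adjusted p = 0.0155), lost without naive replicate 2 or smoke replicate 1 at up to 0.0956. Psmd9 and Psmg4 were not called, at 0.91 and -1.01, nor was Psmd10 at -0.13. Pomp, the chaperone of beta ring maturation, which the rule leaves out, had a difference of 0.02 (95% interval -0.68 to 0.73) by its brightest probe. The mean of its probes gave -0.50, not called, so the gene's probes disagree.

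The activators, which open the core in place of the cap, also split. Psme1, which forms an interferon-induced ring with Psme2, read 2.69 and 2.76 in naive lung, 3.67 and 3.55 in smoke, 2.65 and 2.48 with EVs and 2.16 and 2.45 with MSCs. Both smoke arrays were the highest, and it rose by 0.89 (SE 0.27, adjusted p = 0.0289), a call lost without any 1 naive, smoke or EV array at up to 0.146. Its partner Psme2 stood at 2.93 and 2.59 in naive lung and 3.0 and 2.89 in smoke, which overlap, with a difference of 0.19 (95% interval -0.55 to 0.92). Both probes are printed in 10 spots, whose standard deviation within an array was 0.039 to 0.067 for Psme1 and 0.044 to 0.067 for Psme2. Psme3, the nuclear activator, rose by 1.07 (SE 0.29, adjusted p = 0.019), lost without naive replicate 2 or either smoke array at up to 0.087. Psme4, the large nuclear activator, read 0.87 and 1.61 in naive lung, -0.50 and -0.24 in smoke, 0.69 and 0.98 with EVs and 1.14 and 0.75 with MSCs. Its smoke arrays were the 2 lowest, and it fell by 1.61 (SE 0.34, adjusted p = 0.00861), or to 0.328 of the naive level, lost only without smoke replicate 1, at 0.0659; on the spike-in scale it was higher in smoke by 1.34. Psmf1, the inhibitor, had a difference of 0.21 (95% interval -0.59 to 1.00). Within an array, Psme4 minus Psme3 relative to its naive mean was -2.76 and -2.60 in smoke and between -1.12 and 0.25 on the EV and MSC arrays. Psme1 minus Psme2 was 0.71 and 0.70 in smoke, 0.15 and 0.015 with EVs and -1.23 and -0.27 with MSCs. The other pairs computed were Psmb1 minus Psmb6, at 4.09 and 3.06 in smoke and -0.75 to 0.55 after treatment, Psmb5 minus Psmb6, at 1.41 and 1.13 and -0.10 to 0.39, and Psmd14 minus Psmd4, at 0.08 and -0.88 and -0.73 to 0.45, where smoke and treated arrays overlap. The pairs within an array were not in the plan. Psme3 and Psme4 hold the highest and lowest differences of their role, and Psmb6 the lowest of the beta ring. Wide gaps in smoke for pairs with these genes therefore follow from the choice. No pair was computed under quantile normalization, cyclic loess or normexp. Of the 3 genes that share the name only, Psme3ip1 rose by 1.27 (SE 0.33, adjusted p = 0.0166) and the others were not called.

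**Figure D3:**
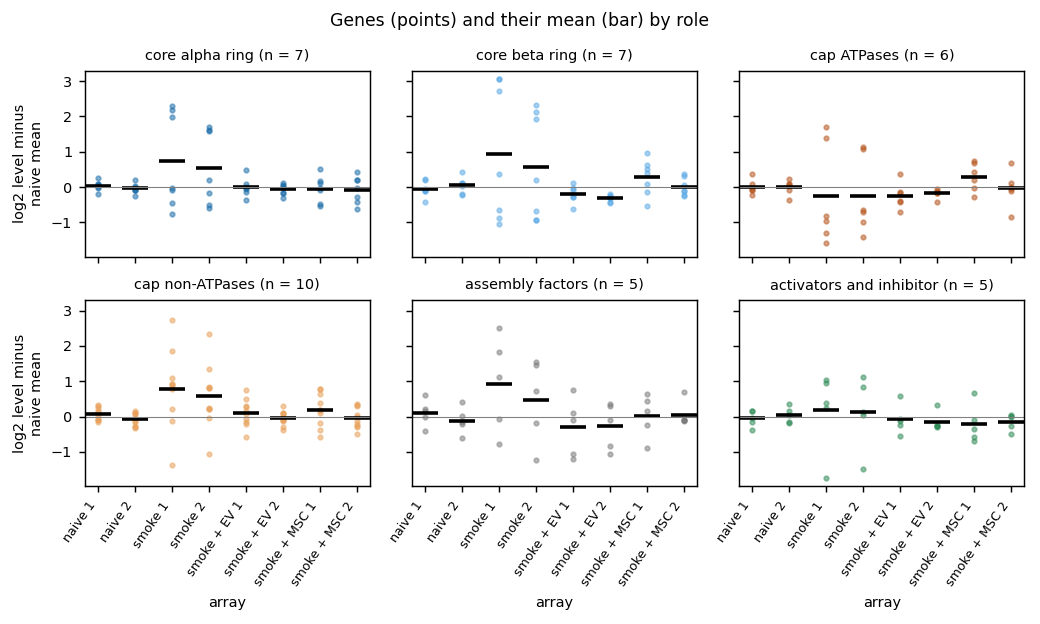
Points show genes and bars the mean of each role on each array, as log2 level minus the naive mean, on the percentile scale. On the smoke arrays the points of each role spread to both sides of 0, while on the EV and MSC arrays they lie closer to 0; on the spike-in scale the smoke arrays are higher for all 40 genes.

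Core and cap subunits were compared by their mean levels, with no test since members are not replicates. The 14 core genes averaged 0.68 and 0.69 on naive arrays, 1.53 and 1.24 on smoke arrays, 0.59 and 0.49 with EVs and 0.80 and 0.65 with MSCs. The 16 cap genes averaged 0.62 and 0.52, 0.97 and 0.83, 0.55 and 0.48, and 0.80 and 0.54 in the same order. Core minus cap, relative to its naive mean, was therefore 0.45 and 0.30 on the smoke arrays and between -0.11 and 0.003 on the EV and MSC arrays. The medians went the other way. Relative to naive, the median core gene was at 0.18 and 0.20 on the smoke arrays and the median cap gene at 0.83 and 0.24. In smoke against naive 6 of 14 core genes rose and 2 fell, and 6 of 16 cap genes rose and 3 fell. The activators and inhibitor averaged 0.89 and 0.98 on naive arrays and 1.11 and 1.06 on smoke arrays.

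The signed difference of a member in smoke went with the brightness of its probe on other arrays, with higher differences for dimmer probes. Across the 40 genes the difference between smoke and naive had a Pearson correlation of -0.72 and a Spearman correlation of -0.71 with the mean signal on the EV and MSC arrays, which do not enter the difference. Over all 25097 features these were -0.16 and -0.13. Genes of 1 array set share its processing, so no p is given. Of the 22 members above the 75th percentile on those arrays 5 rose and 6 fell, and of the 18 at or below it 11 rose (61.1%) and 0 fell. Among all features above the percentile 4.24% were called higher and 43% lower, and at or below it 14.2% and 33.4%. The signal of a probe reflects its sequence as well as the RNA, so this is no comparison of gene levels.

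**Figure D4:**
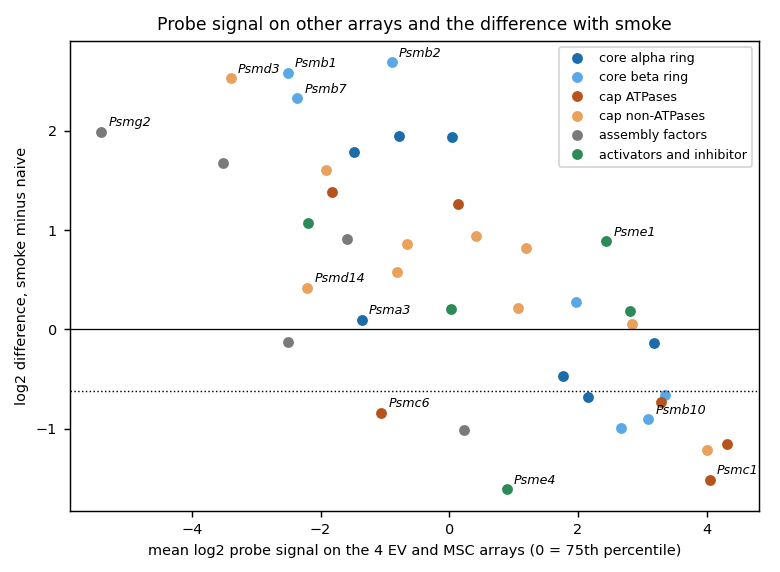
Each point is 1 of the 40 genes, with the mean log2 probe signal on the 4 EV and MSC arrays on the horizontal axis and the log2 difference between smoke and naive on the vertical axis; the solid line is 0 and the dotted line is the median of all features. Dim probes such as Psmb1, Psmb7 and Psmd3 lie at the top and bright probes such as Psmc1 at the bottom, with a Pearson correlation of -0.72; on the spike-in scale every point is above 0.

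After EV treatment 13 of the 40 genes were lower than in smoke and 3 were higher, against 9.96% lower and 29.9% higher over all features (39.8% called in all). Of the 39 genes other than Psmg2, 12 were lower and 3 higher. The members' median was -0.47, against 0.55 over all features, and 8 of the 40 lay above that all-feature median. This comparison uses the same smoke arrays as smoke against naive, so the 2 sets of calls are not independent. Relative to the percentile the difference of Psmb2 was -2.92, of Psmb1 -2.69 (SE 0.37, adjusted p = 0.00428), of Psmb7 -2.52, of Psmd3 -2.0 and of Psma2 -1.95. Psmg2, which the filter let in through smoke, was at -2.93, but its probe was above background on 1 of 2 EV arrays. Under normexp correction its difference was -0.39 and not called. Psme4 was higher by 1.21 (SE 0.34, adjusted p = 0.0286), Psmd2 by 1.09 and Psmc1 by 0.95; the second Psmc1 probe gave 0.15 (adjusted p = 0.717). Of the 13 genes called lower 12 were called under normexp correction and all 13 under the other scalings, while the 3 higher genes were not called under quantile normalization or cyclic loess and had differences of -1.26 to -1.52 on the spike-in scale. Leaving out 1 array at a time left the lower calls of Psma2, Psmb1, Psmb2 and Psmb7 in every fit, and that of Psmg2, which the filter let in through smoke. The lower count dropped to 5 without smoke replicate 1, to 6 without EV replicate 2, to 8 without EV replicate 1 and to 10 without smoke replicate 2, and the higher count was 0 without any 1 of the smoke or EV arrays. Over all features the lower share in those fits was 1.55%, 2.38%, 4.47% and 6.93%, against 9.96% with all arrays, and the higher share 5.86% to 20.5%, against 29.9%. By role 3 of 7 alpha, 3 of 7 beta, 2 of 6 ATPase, 3 of 10 non-ATPase, 1 of 5 assembly genes (Psmg2) and 1 of 5 activator and inhibitor genes were lower. Called higher were 1 of 6 ATPase, 1 of 10 non-ATPase and 1 of 5 activator and inhibitor genes. The ATPases had a median difference of 0.64, near the 0.55 of all features, against -0.47 for all 40 genes. Their median was 0.61 under normexp, 0.29 under quantile normalization, 0.095 under cyclic loess and -1.83 on the spike-in scale. Psme1 had a difference of -1.05 (SE 0.27, adjusted p = 0.0199), lost without any 1 smoke or EV array at up to 0.131.

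The following genes were not called in EV against smoke. Among the cutting subunits Psmb5, Psmb6 and Psmb10 had differences of -0.35, 0.63 and 0.37, and the inducible Psmb8 and Psmb9 of -1.56 (adjusted p = 0.0614) and -0.61. The 95% interval of Psmb8 was -2.89 to -0.24. Of 20 alternative settings 8 called Psmb8 and 5 called Psmb9. The activators Psme2 and Psme3 were at -0.43 and -0.62 and the inhibitor Psmf1 at -0.41. Psma3, Psmc2, Psmd4, Psmd14 and Pomp were at -0.10, 0.60, -0.52, -0.55 and -0.39, while the mean of Pomp's probes gave 0.23. Under other scalings the members called higher and lower were 5 and 14 with normexp, against 61.1% and 7.5% of all features, 0 and 15 with quantile normalization (14.9% and 12.5%), 0 and 19 with cyclic loess (15.7% and 16%), and 0 and 40 with spike-in scaling (0.745% and 72.6%).

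After MSC treatment 15 of the 40 genes were lower than in smoke and 9 higher, against 16.4% lower and 43.3% higher over all features (59.7% called in all). Of the 39 genes other than Psmg2, 14 were lower and 9 higher. The members' median was -0.56, against 0.74 over all features. The difference of Psmb2 was -2.77 (SE 0.45, adjusted p = 0.00155), of Psmd3 -2.65, of Psmb1 -2.50, of Psmb7 -2.19, of Psma2 -2.06 and of Psma1 -1.86. The genes called higher were Psmc1 by 1.67 (SE 0.32, adjusted p = 0.00324), Psmd2 by 1.50, Psmc5 by 1.49, Psme4 by 1.32, Psmb6 by 1.18, Psmb4 by 1.08, Psmc2 by 1.08, Psma4 by 1.03 and Psmb10 by 0.83. The second Psmc1 probe gave 0.10 (adjusted p = 0.794), so the call of that gene rests on 1 of its 2 probes. In the alternatives that leave out 1 array 11 of the 15 lower genes stayed called throughout, and of the 9 higher genes Psmc1 and Psmc5 did. The higher count was 2 without smoke replicate 1, 4 without MSC replicate 1 and 5 without smoke replicate 2, where 31.1%, 38% and 37.3% of all features were called higher. Psmg2, which the filter let in through smoke, had a difference of -1.42 on the percentile scale. Under normexp correction it was higher by 0.73 and called, while the other 14 lower genes stayed below 0. Of the 9 higher genes 2 were called under quantile normalization and 2 under cyclic loess, and on the spike-in scale all 9 were lower, with differences of -2.34 to -3.18. By role 1 of 7 alpha, 3 of 7 beta, 3 of 6 ATPase, 1 of 10 non-ATPase, 0 of 5 assembly and 1 of 5 activator and inhibitor genes were higher. The ATPases had a median difference of 0.67, near the 0.74 of all features, against -0.56 for all 40 genes. Their median was 0.73 under normexp, 0.13 under quantile normalization, 0.11 under cyclic loess and -3.33 on the spike-in scale. Called lower were 3 of 7 alpha, 3 of 7 beta, 2 of 6 ATPase, 3 of 10 non-ATPase, 2 of 5 assembly (with Psmg2) and 2 of 5 activator and inhibitor genes. Those 2 were Psme1, at -1.31 (SE 0.27, adjusted p = 0.00436), and Psme3, at -1.24 (SE 0.29, adjusted p = 0.00738), while Psme2 was at 0.14 and Psmf1 at -0.54.

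Psmb5, Psma3, Psmd4, Psmd14 and Pomp were not called in MSC against smoke, at 0.00083, -0.65, -0.58, 0.07 and 0.09, nor were the inducible Psmb8 and Psmb9, at -1.0 and 0.08. Members called higher and lower under other scalings were 12 and 15 with normexp, against 69.9% and 8.67% of all features, 2 and 22 with quantile normalization (26.8% and 26.9%), 2 and 22 with cyclic loess (27.6% and 28.5%), and 0 and 40 with spike-in scaling (0.785% and 87.8%).

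No member was called between the treatments, or between a treatment and naive lung, on the percentile scale. In EV against MSC 0 of the 40 genes were called, where 7.14% of all features were (1.8% higher and 5.34% lower). Psmg2 read -6.28 and -6.05 with EVs and -4.80 and -4.52 with MSCs, a difference of -1.51 (SE 0.38, adjusted p = 0.0556), and it was the 1 member at an unadjusted p under 0.05; it was above background on 1 array of each group. The spike-in scale called 18 members higher with EVs, where it called 40.4% of all features higher and 0.0398% lower, and normexp called 3 lower, against 2.98% and 47.4%. Quantile normalization (4.49% and 3.56%) and cyclic loess (3% and 2.41%) called 0. In EV against naive 0 members and 0% of features were called, with 1069 features and 2 members, Psmg2 and Psmg4, at an unadjusted p under 0.05; their differences were -0.94 and -1.13. Of the other scalings only the spike-ins called any feature there (0.00797%, lower), and none called a member. In MSC against naive 0 members were called, where 0.00398% of features were, and 0 were under that unadjusted p. The other scalings called 0 members too, where they called up to 0.952% of features higher and 6.35% lower: quantile normalization 0.207% and 0.414%, cyclic loess 0% and 0.00398%, spike-ins 0.0757% and 6.35%, and normexp 0.952% and 0.271%. The 95% intervals of the 40 genes reach from -2.07 to 1.50 for EV against naive and from -1.43 to 1.47 for MSC against naive. Relative to naive, the standard deviation over the 40 genes was 0.42 and 0.28 after EVs and 0.48 and 0.32 after MSCs, against 1.38 and 1.09 on the smoke arrays.

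The wider pathway holds 29 listed genes that feed or control the proteasome, of which 23 were measured. In smoke against naive 3 rose (13%) and 2 fell (8.7%), against 12.1% and 35.4% of all features, with a median of 0.02 against -0.62. Vcp, the ATPase that pulls tagged proteins out of complexes and membranes, read -1.43 and -1.19 in naive lung, 0.93 and 0.32 in smoke, -1.48 and -1.24 with EVs and -1.38 and -0.69 with MSCs. It rose by 1.93 (SE 0.35, adjusted p = 0.00515), with both smoke arrays above all others. Usp14, a deubiquitinase that binds the cap, rose by 1.23 and the shuttle receptor Rad23b by 0.93, both losing their call without naive replicate 2 or either smoke array. The ubiquitin fusion gene Rps27a fell by 1.27, a call lost without smoke replicate 1. It was not called under quantile normalization (-0.27) or cyclic loess (-0.22), and on the spike-in scale it was higher in smoke, by 1.68. Nfe2l2, a factor that binds the antioxidant element, was not called in smoke, at 0.52 (95% interval -0.09 to 1.13). In EV against smoke 3 were higher (13%, against 29.9% of all features), among them Rps27a by 1.01 and the ubiquitin-activating enzyme Uba6 by 0.97. The Uba6 probe is dim, at -4.94 with EVs and -5.91 in smoke, and was above background on 1 of 2 naive and 0 of 2 MSC arrays. Neither Rps27a nor Uba6 was called under quantile normalization (0.23 and 0.22) or cyclic loess (0.11 and 0.25). Their differences were -1.46 and -1.50 on the spike-in scale. Both calls were lost without any 1 smoke or EV array, at up to 0.216. Vcp alone was lower (4.35%, against 9.96%), at -1.99, a call lost at 0.0595 without smoke replicate 1. In MSC against smoke 4 were higher (17.4%, against 43.3%). Among them were Akirin2, which brings proteasomes into the nucleus, by 1.88, Rps27a by 1.47 and the shuttle Ubqln4 by 1.29. Under quantile normalization and cyclic loess Rps27a was not called, at 0.13 and 0.24, while Akirin2 and Ubqln4 were. On the spike-in scale the differences of these named genes were -2.13 to -2.72, and Akirin2 lost its call without smoke replicate 2. The 5 lower (21.7%, against 16.4%) were Usp14 at -1.94, Rad23b at -1.48, Ngly1, which processes NFE2L1, at -1.80, Vcp at -1.66 and Nfe2l2 at -0.99 (adjusted p = 0.0133, lost at 0.0764 without smoke replicate 1).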

How the data were processed

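Total RNA of 8 rat lung samples was hybridised, 1 array each, in 1 colour. Per the file headers, Agilent Feature Extraction 10.7.3.1 wrote the files. The authors deposited its intensity columns: a processed signal, already corrected for background and spatial trend, and the median signals of spot and background. The deposited flags, coded 0 or 1, mark spots well above background and outliers; no other processing by the authors is given in the sources used here. After removal of outlier spots, the log2 values of repeat spots were averaged, and the mean was set relative to the 75th percentile of the array. A gene with several kept probes was represented by the brightest. Symbols come from RefSeq's rat genes (assembly GRCr8) by accession.

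Groups were compared with limma 3.58.1 in R 4.3.3 (data.table, version 1.17.8): 4 group means over all 8 arrays, 4 residual degrees of freedom with a prior of 3.58, Benjamini-Hochberg over 25097 features at 0.05, 2-sided. The fit was also run on simulated data in which few features changed and no array was shifted as a whole. These data differ in both respects, so that run cannot check the scaling. Figures used Python 3.11.15 and matplotlib 3.10.9. The precision is limited by 2 arrays a group. The members, roles and lists were chosen with earlier results of these data known. Named genes are the 6 highest and 6 lowest called, non-overlapping members of each comparison with smoke (3 and 3 elsewhere) and 19 fixed genes; others were named by role after their values were seen. 1 gene of the wider pathway is not reported here. Alternatives tried were normexp (offset 50), quantile, cyclic loess and spike-in scaling, other probe filters and summaries, priors, weights, subsets of samples, a replicate block and leaving out each array.

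Replicate numbers are shared by all groups, and the labels do not say whether same-numbered arrays are paired. The deviations of same-numbered arrays from their group means correlated at -0.15 to 0.14, which cannot decide this. No pairing was used in the main fit.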

Additional observations from a re-analysis of the deposited data

How the results depend on the processing

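The counts of called proteasome genes moved by more than 1.5 times in these cases. With spike-in scaling 40 rose and 0 fell in smoke against naive, 0 were higher and 40 lower after either treatment against smoke, and 18 were higher in EV against MSC. Normexp correction gave 5 higher in EV against smoke and 3 lower in EV against MSC. Quantile normalization gave 2 lower in smoke against naive, 0 higher in EV against smoke and 2 higher in MSC against smoke, and cyclic loess 1, 0 and 2. Higher counts in EV against smoke were 0 without a filter on dim probes, 6 with array weights and 1 with the replicate block, and in MSC against smoke 5 with only those groups in the fit. Leaving out 1 array gave 8 to 17 higher and 0 to 8 lower in smoke against naive, 0 to 4 and 5 to 14 in EV against smoke, 2 to 9 and 11 to 15 in MSC against smoke, and 0 elsewhere. With the replicate block the counts were otherwise 15 higher and 5 lower in smoke against naive, 13 lower in EV against smoke and 8 and 15 in MSC against smoke; the crossed pairing, added after seeing the data, gave 8 and 16 there. Leaving both smoke arrays out of the fit gave 0 calls in EV against MSC and in each treatment against naive.

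Of the 40 members the spike-in scale turned 14 for smoke (against naive), 14 for EVs and 17 for MSCs (both against smoke); normexp turned 4, 2 and 4, quantile normalization 2, 6 and 7, and cyclic loess 4, 6 and 7. The cause was not tested. Values for the named genes, with Psmb9 and Pomp, follow. On the spike-in scale, in smoke against naive: Psme4 1.34, Psmc1 1.44, Psmd2 1.74, Psmc5 1.80, Psmb6 1.96, Psmb10 2.05 and Psmc2 2.22; in EV against smoke: Psme4 -1.26, Psmd2 -1.38, Psmc1 -1.52, Psmb6 -1.85, Psmb10 -2.10 and Psmc2 -1.87; in MSC against smoke: Psmc1 -2.34, Psmd2 -2.51, Psmc5 -2.52, Psme4 -2.69, Psmb6 -2.83, Psmb4 -2.93, Psmb5 -4.01, Psmb10 -3.18, Psmc2 -2.93, Psmd14 -3.94, Psme2 -3.87, Pomp -3.92 and Psmb9 -3.92. Under normexp, in smoke against naive Psmg2 was -0.068, Psma3 -0.10 and Psmd14 -0.12, in EV against smoke Psma3 0.038, and in MSC against smoke Psmg2 0.73, Psmb5 -0.20, Psme2 -0.10, Pomp -0.17 and Psmb9 -0.087. In EV against smoke Psmb10 was -0.078 under quantile normalization and -0.21 under cyclic loess. In MSC against smoke the same pair of settings gave Psmb5 -0.63 and -0.59, Psmd14 -0.36 and -0.39, Psme2 -0.61 and -0.55, Pomp -0.68 and -0.64, and Psmb9 -0.54 and -0.49. The mean of a gene's probes gave Pomp -0.50 in smoke against naive and 0.23 in EV against smoke. With 1 array left out, genes near 0 turned: in smoke against naive Psma3 ran from -0.016 to 0.21, Psmd14 from -0.033 to 0.87 and Pomp from -0.046 to 0.092; in EV against smoke Psma3 from -0.21 to 0.016; in MSC against smoke Psmb5 from -0.23 to 0.23, Psmd14 from -0.38 to 0.52, Psme2 from -0.19 to 0.48, Pomp from -0.24 to 0.42 and Psmb9 from -0.11 to 0.28.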
